A study of Mus musculus with 9 samples.

Results

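Helper T cell lineages and effector regulatory T cells (Tregs) are set by a small group of DNA-binding proteins, and the RNA of 9 of them was followed here in Tregs of 3 organs. The 9 genes were Tbx21, Gata3, Rora, Bcl6, Ahr, Irf4, Prdm1, Batf and Maf. They were taken by symbol from a table of 49510 genes, and all 9 were found and passed the filter on low counts, which kept 16609 genes. Tregs were sorted from Foxp3-GFP mice, whose reporter marks cells that make the Treg factor Foxp3, at 8 weeks of age and 3 days after ischemia/reperfusion (I/R) injury of the heart. The groups were Tregs of the spleen, of the mediastinal lymph node (MLN) that drains the heart, and of the injured heart itself. Each group had 3 libraries, and all 3 groups carried the reporter and had the injury. No uninjured mice and no other T cells are among the libraries, so the comparisons ask how Tregs of the injured heart differ from those of lymphoid organs, and how the lymphoid organs differ from each other, after injury. Whether an organ's libraries are different animals or pools is not stated, and the p-values therefore measure only the spread between these libraries, which may be technical in part.

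Naive CD4 T cells become Th1, Th2, Th17 or follicular helper cells under T-bet (Tbx21), GATA3, the ROR factors and BCL6, respectively. Tregs can use the same factors on top of Foxp3, which is thought to fit them to the kind of inflammation they restrain. BATF and IRF4 act together at composite DNA sites during T cell receptor signalling, and they lead to the effector Treg state in which Blimp-1 (Prdm1) controls Il10. The aryl hydrocarbon receptor (Ahr) senses small ligands, and c-Maf (Maf) drives Il10 in several T cell types. Blimp-1 and BCL6 repress each other.

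Library totals lay between 156194012 and 267520538 counts, with 14562 to 18570 genes detected. Levels are given in CPM, which sets every library to a common total, after scaling by the trimmed mean of M-values (TMM). A count of 0 allows up to 3 counts, which is at most 0.0192 CPM. Intervals of this kind cover counting error only, because PCR copies of a molecule are counted as separate reads. The library with the highest TMM factor and the lowest share of B2m counts in its organ was library 3 in the spleen, library 3 in the MLN and library 2 in the heart. These 3 libraries stood apart, and results are given below with and without them where they matter.

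The Treg label was checked against its markers. Foxp3 was 83.5 ± 89.5 CPM in the spleen, 43.4 ± 2.45 CPM in the MLN and 15.6 ± 19.8 CPM in the heart (SD, n = 3 each). In heart library 3 Foxp3 was 0.239 CPM. Il2ra, the IL-2 receptor alpha chain of Tregs, was 160.1 CPM there, and Cd3e, a chain of the T cell receptor complex, was 29.2 CPM. Each of these was the lowest of the 9 libraries, as was Ctla4 at 314 CPM. Not every marker was low there. Ikzf2, which encodes the Treg factor Helios, was 349 CPM in that library, the highest of the heart libraries. Cd4 was 31.8 CPM, above spleen library 1 (16.3 CPM) and MLN library 1 (19.8 CPM). Of 9 Treg markers, 1 was called lower in the heart against the spleen and 2 against the MLN. Ikzf2 was 1442 ± 328 CPM in the spleen, 1671 ± 641 CPM in the MLN and 290.3 ± 60.3 CPM in the heart. The log2 difference of the heart was -2.31 from the spleen and -2.53 from the MLN (edgeR adjusted p = 0.0492 and 0.0344). Izumo1r, another of the 9 Treg markers, differed by -2.89 from the MLN (edgeR adjusted p = 0.0419). The 15 pan-T markers summed to between 0.742% and 1.01% of counts in the spleen, 0.889% and 0.980% in the MLN, and 0.307% and 0.581% in the heart. The 14 macrophage and monocyte markers took 0.683% to 0.946% of counts in the heart, 0.0996% to 0.311% in the spleen and 0.0237% to 0.0772% in the MLN. The 8 fibroblast markers took 0.271% to 1.43% in the heart and at most 0.00191% elsewhere. The 9 mast cell markers took 0.621% and 0.598% in heart libraries 1 and 2, 0.00412% in heart library 3, and at most 0.00593% elsewhere. The 8 plasma cell markers ran the other way, with 0.620% to 1.82% in the spleen and 0.00208% to 0.0160% in the heart, where Ighg2b was at 0. The 9 B cell markers likewise took 0.116% to 0.135% in the spleen and 0.00175% to 0.00606% in the heart, where Blk was at 0. Several of the 9 factors are also made by myeloid, mast, B or plasma cells, and the part of such cells in the values below was not tested. In bulk libraries, fewer cells of a type and less RNA per cell cannot be told apart.

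**Figure D1:**
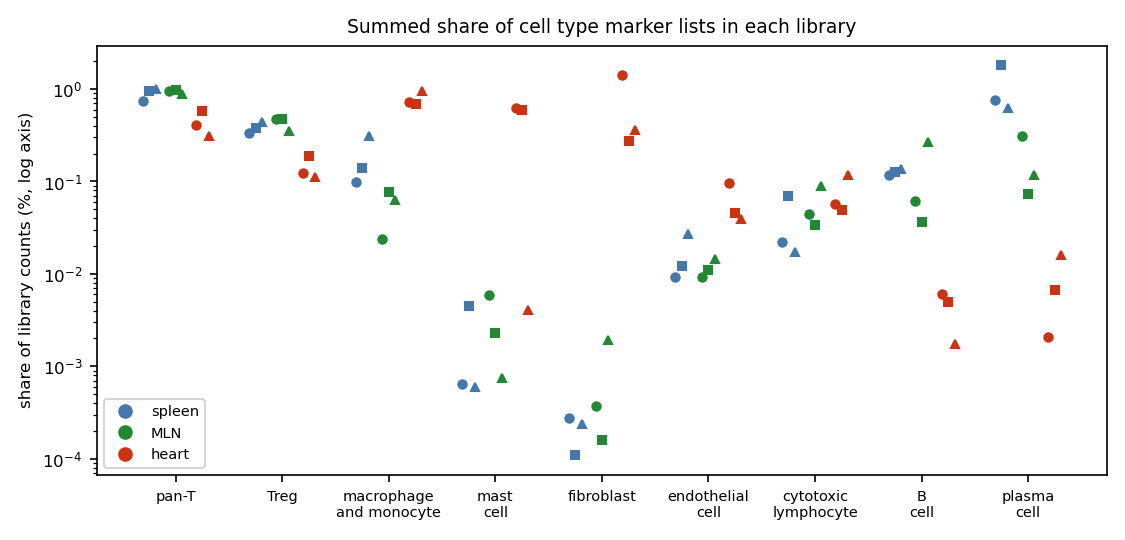
Summed share of library counts (%, log axis) for 9 lists of cell type markers, with 1 point per library (circle, library 1; square, library 2; triangle, library 3) coloured by organ. Macrophage and fibroblast shares are higher in all 3 heart libraries than elsewhere, mast cell shares are high in heart libraries 1 and 2 and not in library 3, and pan-T and Treg shares are lower in the heart.

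None of the 9 factors passed the test in any comparison of organs (edgeR quasi-likelihood test, Benjamini-Hochberg adjusted p below 0.05 over 16609 genes). The same test called 131 genes, 0.789%, between heart and spleen, 230 genes, 1.38%, between heart and MLN, and 0 genes, 0%, between MLN and spleen. Leaving out any 1 spleen or heart library left 0 to 10 genes called between heart and spleen, and leaving out any 1 MLN or heart library left 0 to 59 called between heart and MLN. At an unadjusted p below 0.05 the heart differed from the spleen in Rora and Ahr (13.6% of all genes did so), the heart from the MLN in Rora and Prdm1 (15.5% of all genes), and the MLN from the spleen in Ahr (5.75% of all genes). In the other tests run, Rora and Ahr were called between heart and spleen by DESeq2, with 11.3% of all genes, and by limma-voom, with 6.87%. Rora was called between heart and MLN by DESeq2, with 13.2% of all genes, and by limma-voom, with 8.02%. Ahr was called between MLN and spleen by DESeq2, with 4.73% of all genes. None of these factors was called by edgeR without the 3 libraries that stood apart, but that fit called few genes of any kind. It called 0.0177% of all genes between heart and spleen, 0.0236% between heart and MLN and 0% between MLN and spleen. It therefore cannot decide whether the DESeq2 and limma-voom calls rest on those libraries.

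Rora and Ahr lay above every spleen library in all 3 heart libraries, which 12.4% of all genes did. Rora and Prdm1 lay above every MLN library in all 3 heart libraries, against 14.9% of all genes. No factor lay below the other organ in every heart library, against 6.9% of all genes for the spleen and 11.2% for the MLN. Between MLN and spleen, Ahr was higher without overlap, as were 4.52% of all genes, and no factor was lower without overlap, against 4.56% of all genes. With 9 genes, 2 make 22.2% and 1 makes 11.1%, so each of these counts exceeds the background by less than 1 gene. The median log2 difference of the 9 factors was -0.27 between heart and spleen, where that of all genes was 0.024. It was 0.68 between heart and MLN, against 0.12, and -0.81 between MLN and spleen, against 0. The comparisons share libraries in pairs and are not independent of each other.

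**Figure D2:**
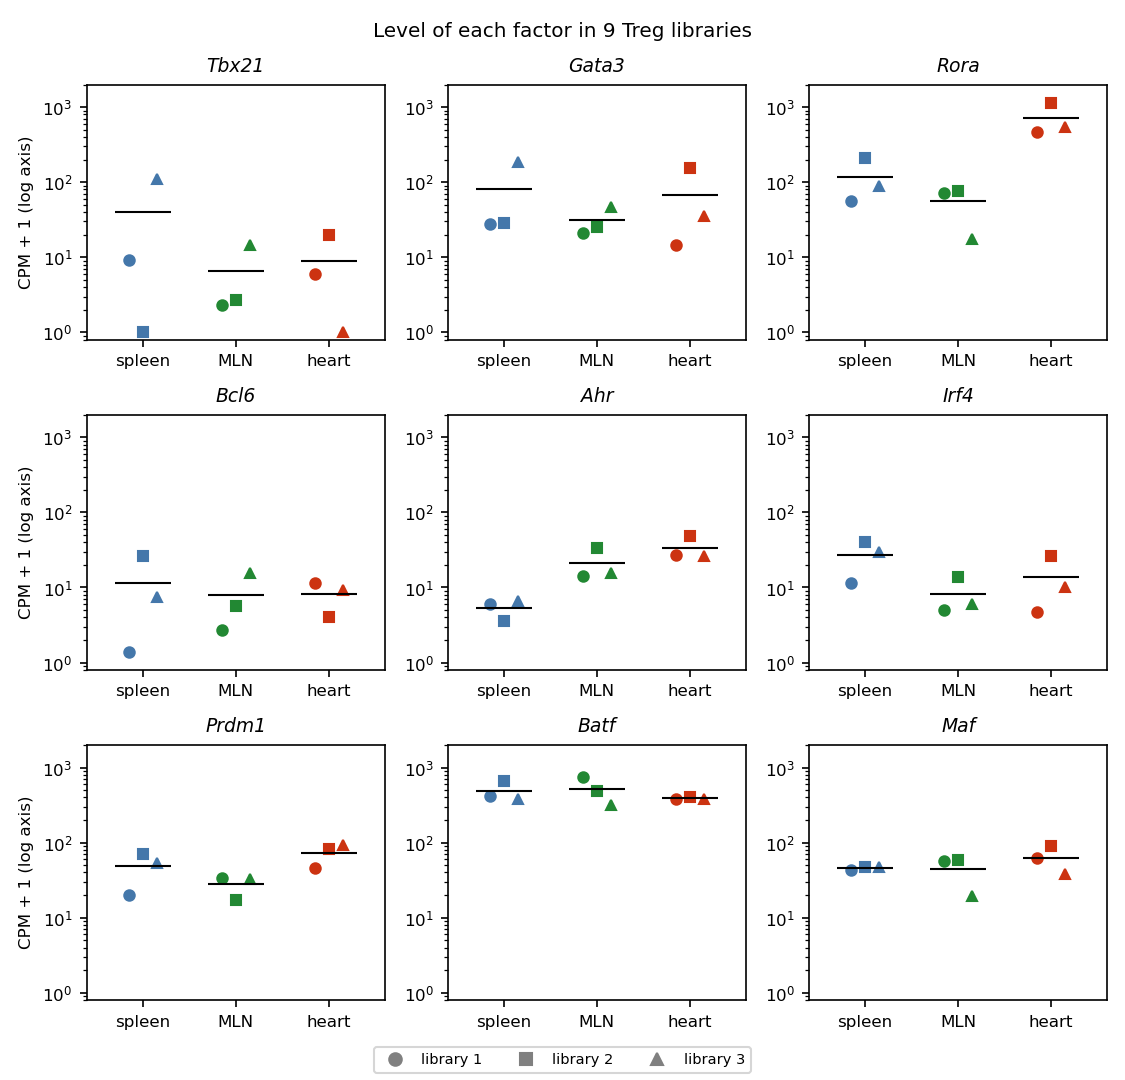
CPM + 1 (log axis) of each factor in the 9 libraries, grouped by organ, with 1 point per library and a line at the organ's mean. Rora is higher in all 3 heart libraries than in any other library, Ahr is lowest in the 3 spleen libraries, Batf stays between 320.1 and 740.2 CPM, and Tbx21 spreads from 0 to 107.9 CPM.

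Tbx21 encodes T-bet, the master factor of Th1 cells, and lies on the minus strand at chr11:97098071-97115331 (GENCODE vM21 on GRCm38, used for all loci here). Its level was 8.15, 0 and 108 CPM in spleen libraries 1, 2 and 3, 1.32, 1.72 and 13.6 CPM in the MLN, and 4.97, 18.8 and 0 CPM in the heart. Within every organ the highest library was one of those that stood apart, and 1 spleen library and 1 heart library had no count at all. Its log2 differences were -2.29 (SE 2.75, edgeR adjusted p = 0.901) between heart and spleen, 0.51 (SE 2.63, adjusted p = 0.972) between heart and MLN and -2.80 (SE 2.80, adjusted p = 1) between MLN and spleen. Without spleen library 3 the difference between heart and spleen turned to 0.96 and that between MLN and spleen to 0.45, and without heart library 2 that between heart and MLN turned to -1.16. The spread of Tbx21 in the spleen, as the SD of log2(CPM + 1), was larger than that of 99.6% of 16564 genes, so no order of organs can be read from it.

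Gata3 encodes the Th2 factor that Tregs of barrier tissues also use, and lies on the minus strand at chr2:9857078-9890034. It was 26.7, 27.2 and 187 CPM in spleen libraries 1 to 3, 19.7, 24.7 and 45.4 CPM in the MLN, and 13.4, 152 and 33.9 CPM in the heart. As for Tbx21, the highest value of each organ came from the library that stood apart, and the organs overlapped. The log2 difference was -0.27 (SE 1.03, edgeR adjusted p = 0.987) between heart and spleen and 1.15 (SE 1.04, adjusted p = 0.732) between heart and MLN. Between MLN and spleen it was -1.42 (SE 1.05, adjusted p = 1). The heart and spleen difference was positive without spleen library 3 (1.31), heart library 1 (0.22) or heart library 3 (0.047). Without heart library 2 the heart and MLN difference was -0.34, and without spleen library 3 the MLN and spleen difference was 0.15.

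Rora was higher in each heart library than in any lymphoid library. It encodes RORα, a nuclear receptor that takes part in Th17 differentiation beside RORγt and is known in Tregs of skin and in group 2 innate lymphoid cells. The gene spans 734461 bases on the plus strand at chr9:68653786-69388246, with 13071 bases of exon. Its level was 55.5, 208 and 87.5 CPM in spleen libraries 1 to 3, and 71.5, 75.7 and 16.7 CPM in the MLN. In the heart it was 461, 1120 and 540 CPM. The lowest heart library exceeded the highest spleen library by a factor of more than 2. The mean was 6.03-fold that of the spleen (a log2 difference of 2.59, SE 0.73, edgeR adjusted p = 0.135) and 12.9-fold that of the MLN (a log2 difference of 3.69, SE 0.77, adjusted p = 0.0589). Neither passed the threshold in edgeR, whereas DESeq2 gave adjusted p = 0.00779 and 1.99e-05 and limma-voom 0.0363 and 0.00819. Without the 3 libraries that stood apart the log2 differences were 1.93 and 2.78 (edgeR adjusted p = 0.258 and 0.184), each from 2 libraries an organ. In heart library 3, where the mast cell markers were near the level of the lymphoid organs, Rora was 540 CPM. Macrophage and fibroblast markers were high in all 3 heart libraries. The part of mast cells, macrophages and fibroblasts in the Rora values was not tested. No list of innate lymphoid cell markers was among those summed. Between MLN and spleen the log2 difference was -1.10 (SE 0.70, adjusted p = 1) and the libraries overlapped. An antisense gene, Gm15511, shares 82 exon bases with Rora. It drew 7507 counts over the 9 libraries against 597620 for Rora, and the strand option of the counting is not given in the sources used here.

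Rora and Prdm1 were the factors above every MLN library in all heart libraries, and their promoters are shown for that reason, from 250 bases before to 50 bases after the RefSeq start (GRCm38.p6), 5′ to 3′ on the gene's strand. The Rora window is chr9:68653536-68653835 on the plus strand and the Prdm1 window is chr10:44458699-44458998 on the minus strand. Capitals mark the core of AHR sites, GCGTG, on either strand, where CACGC is its reverse complement. They also mark TGANTCA, a loose AP-1 pattern in which N is any base. AP-1 sites are bound by BATF with JUN proteins, and the Prdm1 match, TGAATCA, has A at N.
Rora: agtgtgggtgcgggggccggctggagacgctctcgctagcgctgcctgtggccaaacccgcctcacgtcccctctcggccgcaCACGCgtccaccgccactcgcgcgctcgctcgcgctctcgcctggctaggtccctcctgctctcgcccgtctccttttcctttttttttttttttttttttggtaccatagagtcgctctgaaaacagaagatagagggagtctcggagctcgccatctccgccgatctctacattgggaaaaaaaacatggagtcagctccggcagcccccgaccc
Prdm1: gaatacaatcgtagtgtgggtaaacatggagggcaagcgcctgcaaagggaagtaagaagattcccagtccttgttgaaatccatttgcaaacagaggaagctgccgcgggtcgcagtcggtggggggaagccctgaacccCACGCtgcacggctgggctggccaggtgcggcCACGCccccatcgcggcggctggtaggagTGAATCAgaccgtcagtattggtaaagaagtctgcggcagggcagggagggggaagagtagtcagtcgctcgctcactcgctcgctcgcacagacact
The Rora window held 1 AHR core and the Prdm1 window held 2 AHR cores and 1 match to the AP-1 pattern, with no overlap between them. Over all 32851 promoters in the RefSeq table, 32.4% held an AHR core and 7.81% the AP-1 pattern, so a core is common in windows of this length. Of the 8 windows listed for 7 of the 9 factors, only those of Rora, Prdm1 and Irf4 held a searched motif, Irf4 having 1 AHR core. The IRF element (3.44% of all promoters) and the ROR site AGGTCA (16.3%) were in none of the 8. Such matches are descriptions of letters and not of binding. Which start of each gene these cells used was not examined.

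Bcl6 encodes the repressor that sets follicular helper cells and the follicular Tregs that restrain them, and lies on the minus strand at chr16:23965052-23988852. It was 0.397, 25.04 and 6.49 CPM in spleen libraries 1 to 3, 1.68, 4.58 and 14.8 CPM in the MLN, and 10.4, 3.02 and 8.23 CPM in the heart. The spleen values alone covered a range wider than that of the other organs, and all organs overlapped. Log2 differences were -0.56 (SE 1.34, edgeR adjusted p = 0.971) between heart and spleen, 0.043 (SE 1.34, adjusted p = 0.996) between heart and MLN and -0.60 (SE 1.34, adjusted p = 1) between MLN and spleen. Spleen library 2 set the sign of both spleen differences, which were 1.10 and 1.01 without it. The heart and MLN difference was negative without MLN library 1 (-0.42), MLN library 2 (-0.19), heart library 1 (-0.32) or heart library 3 (-0.063).

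Ahr was lowest in the spleen. It encodes the ligand-activated aryl hydrocarbon receptor, which pairs with ARNT, and lies on the minus strand at chr12:35497974-35535038. Its level was 5.05, 2.55 and 5.59 CPM in spleen libraries 1 to 3, 13.3, 32.8 and 14.8 CPM in the MLN, and 26.0, 47.0 and 24.9 CPM in the heart. No spleen library reached the lowest MLN or heart library, whereas MLN and heart overlapped through MLN library 2. The mean of the heart was 7.41-fold that of the spleen (a log2 difference of 2.89, SE 0.64, edgeR adjusted p = 0.0772) and the mean of the MLN 4.61-fold that of the spleen (a log2 difference of 2.21, SE 0.62, adjusted p = 0.839). Neither difference passed in edgeR. DESeq2 gave adjusted p = 6.34e-06 and 0.00477, and limma-voom gave 0.0458 and 0.825. Without the 3 libraries that stood apart the log2 differences were 2.75 and 2.59. The heart and MLN difference was 0.68 (SE 0.60, edgeR adjusted p = 0.717). The part of the other cell types in the Ahr values was not tested.

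Irf4 encodes interferon regulatory factor 4, which Tregs need for effector differentiation and which B and plasma cells also make, and lies on the plus strand at chr13:30749226-30766976. It was 10.4, 39.0 and 28.7 CPM in spleen libraries 1 to 3, 3.95, 12.8 and 5.04 CPM in the MLN, and 3.69, 25.3 and 9.07 CPM in the heart. The 2 highest values were from the spleen, and each pair of organs overlapped. The part of B and plasma cells in the Irf4 values was not tested. Log2 differences were -1.04 (SE 0.88, edgeR adjusted p = 0.795) between heart and spleen and -1.84 (SE 0.90, adjusted p = 0.839) between MLN and spleen. The heart and MLN difference of 0.81 (SE 0.88, adjusted p = 0.801) turned to -0.19 without heart library 2.

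Batf had the closest organ means of the 9 factors in CPM. It encodes the AP-1 family protein that pairs with JUN proteins and IRF4, and lies on the plus strand at chr12:85686669-85709087. Its level was 417, 662 and 376 CPM in spleen libraries 1 to 3, 740, 484 and 320.1 CPM in the MLN, and 380.4, 403 and 383 CPM in the heart. The 3 heart libraries differed by a factor of 1.06 from lowest to highest, a spread smaller than that of all but 5.18% of genes in the heart. Log2 differences were -0.32 (SE 0.38, edgeR adjusted p = 0.900) between heart and spleen, -0.41 (SE 0.38, adjusted p = 0.753) between heart and MLN and 0.086 (SE 0.38, adjusted p = 1) between MLN and spleen. Scaled to pan-T counts, the first 2 were 0.53 and 0.58, below the medians of all genes on that scale, 0.83 and 1.03. The last turned negative without spleen library 1 (-0.010), spleen library 3 (-0.066) or MLN library 1 (-0.27).

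Prdm1 encodes Blimp-1, the repressor that marks effector Tregs and plasma cells, and lies on the minus strand at chr10:44437177-44528501. It was 18.8, 70.4 and 52.2 CPM in spleen libraries 1 to 3, 32.9, 16.4 and 31.4 CPM in the MLN, and 45.5, 80.4 and 92.4 CPM in the heart. The heart lay above the MLN in every library and overlapped the spleen. The log2 difference was 1.43 (SE 0.57, edgeR adjusted p = 0.275) between heart and MLN, and 1.50 without the 3 libraries that stood apart. Between heart and spleen it was 0.63 (SE 0.56, adjusted p = 0.815), and between MLN and spleen -0.81 (SE 0.56, adjusted p = 1). Macrophage markers were higher and plasma cell markers lower in every heart library than in every MLN library, and the part of these and other cells in the Prdm1 values was not tested.

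Maf encodes c-Maf and lies on the minus strand at chr8:115682942-115707794. It was 42.5, 46.0 and 46.3 CPM in spleen libraries 1 to 3, 56.4, 57.9 and 18.3 CPM in the MLN, and 61.9, 87.9 and 36.8 CPM in the heart. The spleen libraries differed by a factor of 1.09, and the other organs enclosed them. Log2 differences were 0.47 (SE 0.52, edgeR adjusted p = 0.883) between heart and spleen, 0.49 (SE 0.52, adjusted p = 0.791) between heart and MLN and -0.025 (SE 0.52, adjusted p = 1) between MLN and spleen. The last became 0.35 without MLN library 3. Without the 3 libraries that stood apart the heart and MLN difference was -0.19.

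**Figure D3:**
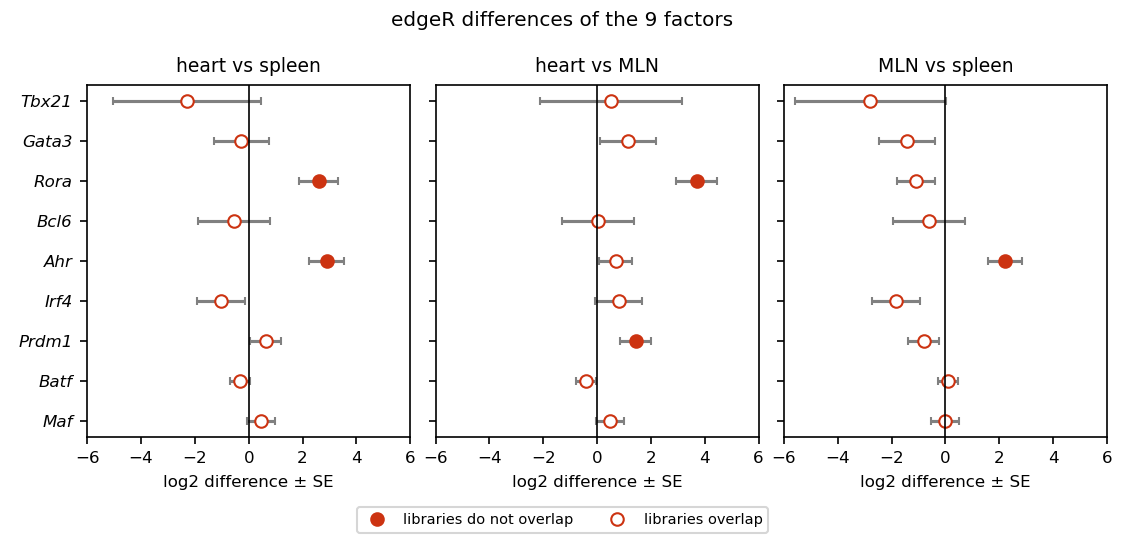
Log2 difference ± SE (edgeR, 3 libraries per organ) of each factor between heart and spleen, heart and MLN, and MLN and spleen, with filled points where the libraries of both organs do not overlap. Filled points are Rora and Ahr for heart against spleen, Rora and Prdm1 for heart against MLN, and Ahr for MLN against spleen, and no factor passed the adjusted threshold.

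The order of the factors was compared on CPM per kb of exon, since longer transcripts give more reads. Batf had the highest length-corrected level in each organ, at 345 ± 110 CPM per kb in the spleen, 366 ± 151 in the MLN and 276 ± 8.95 in the heart (SD, n = 3 each), and its libraries did not overlap those of the next factor. This placed it above 98.5% of genes in the spleen, 98.6% in the MLN and 98.0% in the heart. Gata3 came next in the spleen, at 20.1 CPM per kb, and in the MLN, at 7.53 CPM per kb. In the heart Rora came next, at 54.1 CPM per kb, where it was the fourth in the spleen, at 8.96, and the fifth in the MLN, at 4.18. Ahr had the lowest length-corrected level in the spleen, 0.714 CPM per kb, and Bcl6 the lowest in the MLN, 1.05, and in the heart, 1.08. Below Batf, the ranges over libraries of every pair of neighbours in the order overlapped in each organ, so by ranges only Batf stood apart. Within each heart library, however, Rora came next after Batf. In heart libraries 1 to 3 Rora was 35.3, 85.7 and 41.3 CPM per kb, against 3.37, 38.2 and 8.53 for Gata3.

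**Figure D4:**
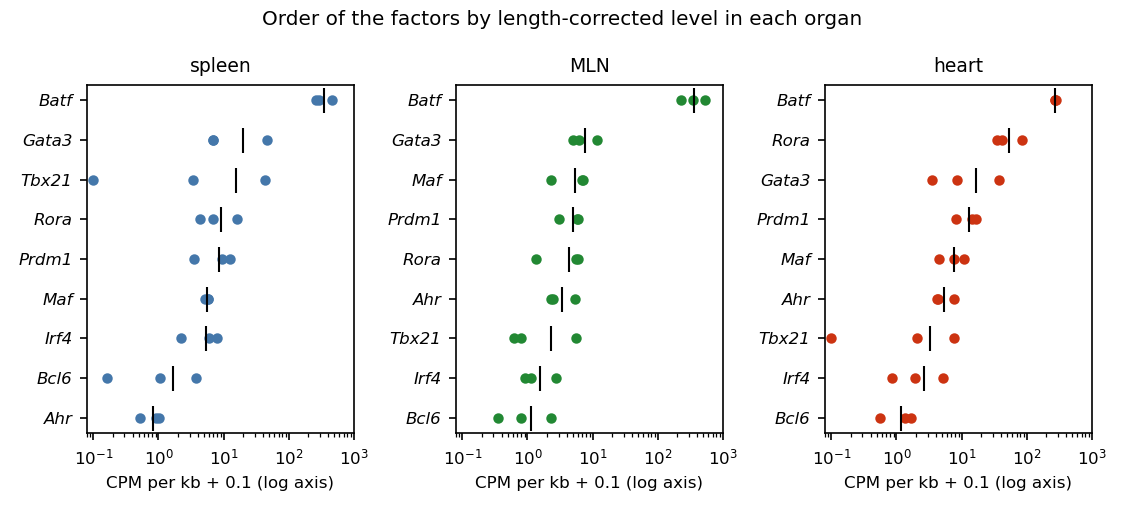
Length-corrected level (CPM per kb of exon + 0.1, log axis) of the 9 factors in each organ, ordered by the mean (black mark), with 1 point per library. Batf is separate from the other factors in each organ, Rora is next in the heart, and the remaining factors overlap their neighbours.

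Heart library 2 held the highest heart value of 7 of the 9 factors, and of 38% of all genes. Spleen library 1 held the lowest spleen value of 6, and of 43.6% of all genes, and the highest of none, against 34.5%. In the MLN the highest values were spread over libraries 1, 2 and 3, with 2, 4 and 3 factors. Likeness was taken as the root mean square difference of centred log2(CPM + 1) over the 9 libraries. This measure is also small where 2 genes both vary little, so it does not by itself show a shared pattern. Batf and Maf had the smallest difference of any 2 factors, 0.56. Outside the 9, the gene closest to Rora by this measure, among 7402 genes with a mean of at least 10 CPM, was Atp8b4 (0.47), followed by Rab20 (0.57) and Rhoc (0.59). Ahr was most like Dync1li2 (0.41), Heatr5a (0.46) and Parp12 (0.55). Gata3 was most like Dgkz (0.25), Irf8 (0.27) and Cd6 (0.36), and Prdm1 like Msrb1, Sec24b and Ptp4a1 (0.34 to 0.35). The nearest gene to Batf was Yif1b (0.21), to Maf Leprot (0.21), to Bcl6 Ubr3 (0.46), to Irf4 Phlpp1 (0.52) and to Tbx21 Slc37a1 (0.80).

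Because pan-T markers took a smaller share of the heart libraries, counts were also set against the summed counts of the 15 pan-T genes in the same library. Per 1000 pan-T counts, Rora was 13.5 in the spleen (7.47 to 22.3), 5.76 in the MLN (2.19 to 7.80) and 148 in the heart (85.0 to 214). Ahr was 0.547 (0.273 to 0.688), 2.22 (1.36 to 3.38) and 6.82 (4.79 to 8.97) in the same order. On this scale the 3 organs did not overlap in Ahr, with the heart highest and the spleen lowest. Prdm1 was 5.50 in the spleen (2.53 to 7.55), 3.06 in the MLN (1.69 to 4.13) and 16.2 in the heart (8.38 to 24.9). Maf was 5.45 (4.93 to 5.72), 4.70 (2.40 to 5.96) and 12.7 (9.92 to 16.8). Rora, Ahr, Prdm1 and Maf, 4 of the 9 factors, were thus above both other organs in every heart library on this scale, as were 17.2% of all genes (21.2% above the spleen and 26.4% above the MLN). Between MLN and spleen, 3.21% of all genes were higher without overlap, as Ahr was. The heart libraries of Batf, Gata3, Tbx21, Bcl6 and Irf4 overlapped those of both other organs. Irf4 on this scale was lower in every MLN library (0.402 to 1.31) than in every spleen library (1.40 to 4.18), as were 5.4% of all genes, but it overlapped in CPM and was not called on this scale (edgeR adjusted p = 0.842). Scaling to pan-T counts also moved the median log2 difference of all genes to 0.83 between heart and spleen and 1.03 between heart and MLN, so a factor must be read against that shift. Maf, at 1.22 and 1.43 (edgeR adjusted p = 0.208 and 0.121), and Prdm1, at 1.56 and 2.41 (adjusted p = 0.220 and 0.0695), were not called. In edgeR with this scaling, Rora (log2 3.45, adjusted p = 0.0412) and Ahr (log2 3.64, adjusted p = 0.0361) were called between heart and spleen, with 2.49% of all genes. Rora was called between heart and MLN (log2 4.69, edgeR adjusted p = 0.0175), with 3.79% of all genes. These tests were against 0 and not against the shift of the median. Scaling to pan-T counts does not remove RNA of other cells, whose part in these values was not tested.

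**Figure D5:**
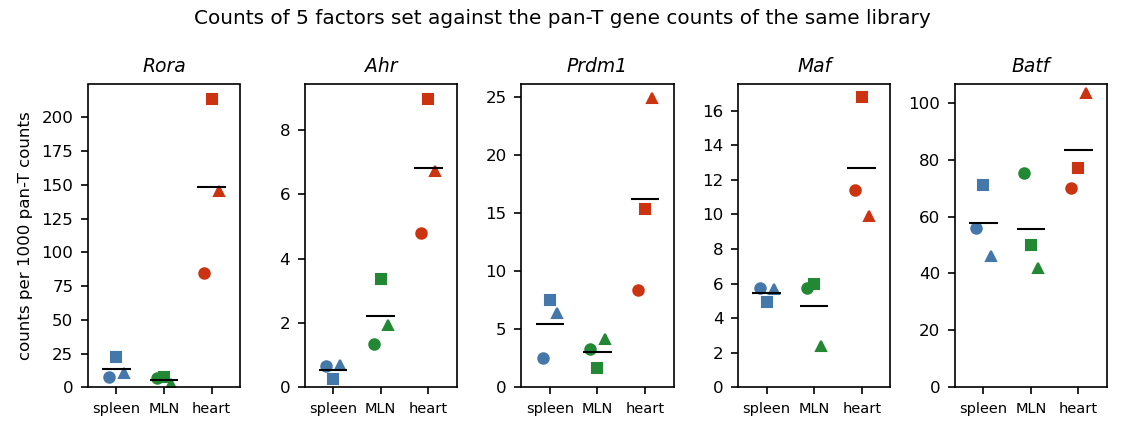
Counts of 5 factors per 1000 counts of the 15 pan-T genes in the same library (linear axis from 0, a scale of its own per factor), with 1 point per library and a line at the mean. Rora, Ahr, Prdm1 and Maf lie above both lymphoid organs in all 3 heart libraries, and Batf overlaps.

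The balance of Prdm1 and Bcl6, which repress each other, was taken as the log2 ratio of their counts per kb within a library. It was 5.82, 1.76 and 3.27 in spleen libraries 1 to 3, 4.55, 2.11 and 1.35 in the MLN, and 2.39, 5.0 and 3.75 in the heart. Prdm1 exceeded Bcl6 per kb in each of the 9 libraries, and the organs overlapped. The mean ratio differed by 0.096 between heart and spleen (exact permutation p = 1), by 1.04 between heart and MLN (p = 0.4, exact permutation) and by -0.95 between MLN and spleen (p = 0.6, exact permutation), two-sided, where 3 against 3 allows no p below 0.1. Without spleen library 2, spleen library 3 or heart library 2 the first difference was -0.83, -0.076 or -0.55, and without spleen library 1 the last was 0.16.

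The genes around each factor were counted in 7 lists of its partners and products. Of 12 Th1 genes used with T-bet, all 12 were tested and 0 were called in any comparison. Stat4, which signals from the IL-12 receptor, was 522 ± 93.3 CPM in the spleen, 363 ± 136 in the MLN and 824 ± 355 in the heart. Il12rb2, a chain of that receptor, was 217, 86.2 and 138 CPM in heart libraries 1 to 3, 9.64 CPM in spleen library 2, 32.6 CPM in MLN library 2 and 0 in the other 4 libraries. It was above every other library in the heart, yet edgeR gave adjusted p = 0.667 against the spleen and 0.737 against the MLN. Ifng, the signature cytokine of Th1 cells, was 201, 76.8 and 352 CPM in the heart and overlapped the MLN, whose library 2 had 213 CPM. Of 10 Th2 genes, 7 were tested and 1 was called, Il1rl1, which encodes the IL-33 receptor ST2. It was 9.66, 4.73 and 5.46 CPM in the spleen, 4.74, 6.51 and 3.08 CPM in the MLN, and 51.0, 51.4 and 39.1 CPM in the heart. The heart had more Il1rl1 than the MLN (a log2 difference of 3.30, SE 0.57, edgeR adjusted p = 0.0388), and against the spleen the difference was 2.83 (adjusted p = 0.0651). Mast cells, fibroblasts and other cells can also make Il1rl1, and their part in its values was not tested. Stat6 and Il4ra, which carry the IL-4 signal, overlapped between all organs, with heart means of 39.3 ± 24.6 and 67.3 ± 79.2 CPM. Ccr8, a chemokine receptor of Tregs and Th2 cells, was 43.0 ± 11.3 CPM in the spleen, 68.3 ± 46.5 in the MLN and 31.7 ± 18.4 in the heart.

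Of 10 Th17 genes tested, 0 were called, and the 4 of highest level were Stat3, Il23r, Il22 and Il6ra. Stat3, which acts below IL-6 and IL-23, was 86.3 ± 42.3 CPM in the spleen, 51.9 ± 26.3 in the MLN and 151 ± 123 in the heart. Il22 was 80.0 ± 108 CPM in the spleen and 11.8 ± 9.36 CPM in the heart, and Il23r 48.7 ± 79.8 and 40.1 ± 58.2 CPM. Il6ra was 43.5 ± 22.8, 17.3 ± 9.96 and 20.8 ± 22.5 CPM in spleen, MLN and heart. None of the 10 follicular helper genes tested was called. The median log2 differences from the spleen and the MLN were 1.03 and 1.50 for the Th1 genes, 1.46 and 2.79 for the Th2 genes, 0.26 and 0.90 for the Th17 genes and -0.66 and -0.97 for the follicular helper genes, where those of the pan-T markers were -0.97 and -0.76. Btla, an inhibitory receptor, had -1.55 (edgeR adjusted p = 0.241) and -1.67 (adjusted p = 0.175) in these comparisons. Tcf7, a factor of naive and follicular T cells, was 150 ± 113 CPM in the spleen, 207 ± 145 in the MLN and 78.4 ± 42.6 in the heart, and Sh2d1a and Cd200 had heart means of 92.2 ± 37.5 and 49.3 ± 40.6 CPM. Of 10 AP-1, IRF and NFAT partners, 0 were called, and Junb ranged widely, at 358 ± 375 CPM in the spleen and 301 ± 432 CPM in the heart. Nfatc1, Irf8 and Jun likewise had heart values of 104 ± 93.1, 43.9 ± 51.5 and 56.3 ± 63.4 CPM. Of 9 AHR partners and targets, 7 were tested and 0 were called. The chaperone partners of AHR, Ptges3 and Hsp90ab1, had heart means of 384 ± 154 and 319 ± 157 CPM, and log2 differences from the spleen of -0.18 and -0.24.

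Tiparp, a target gene of AHR that encodes an ADP-ribosyltransferase, was among the AHR partners and targets of highest level and was not called. It was 119, 134 and 103 CPM in the spleen, 123, 59.5 and 89.5 CPM in the MLN, and 264, 308 and 331 CPM in the heart. All 3 heart libraries exceeded all others, with log2 differences of 1.34 from the spleen (edgeR adjusted p = 0.110) and 1.73 from the MLN (adjusted p = 0.0531). Of all genes, 12.4% lay above every spleen library in all heart libraries, and 14.9% above every MLN library. The part of other cell types in the Tiparp values was not tested. For the 7 tested AHR partners and targets, the log2 differences from spleen and MLN had medians of 0.021 and 0.18, against 0.024 and 0.12 for all genes. Between MLN and spleen, where Ahr itself did not overlap, Tiparp did (log2 -0.39, adjusted p = 1). Of 14 effector Treg products tested, 0 were called. Icos, a costimulatory receptor, was 478 ± 97.7 CPM in the spleen, 991 ± 581 in the MLN and 1550 ± 527 in the heart, and its difference between heart and spleen was 1.70 (edgeR adjusted p = 0.144). Gzmb, a cytotoxic protease of effector Tregs, was 175 ± 68.5, 373 ± 104 and 447 ± 96.4 CPM in the same order. The inhibitory receptors Tigit and Ctla4 were 630 ± 138 and 409 ± 125 CPM in the heart, with log2 differences of -0.20 and -0.78 from the spleen (edgeR adjusted p = 0.970 and 0.383).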

How the data were processed

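RNA was measured in 9 Treg libraries, 3 each from spleen, MLN and injured heart. Per the labels' protocols, cells were sorted on magnetic beads and by flow cytometry, and cDNA was made with a SMARTer kit for very low input, which amplifies by PCR. The authors deposited raw read counts per gene, not normalized. Per the submitters' processing notes, CASAVA 1.8.2, HISAT2 and HTSeq 0.6.0 were used with build mm10. The strand option is not given in the sources used here. Columns of values left out numbered 0.

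From these counts, genes were filtered by edgeR 4.0.16 in R 4.3.3 (filterByExpr, minimum count 10, minimum total 15), scaled by TMM, and tested in 1 quasi-likelihood fit with a term per organ over all 9 libraries. P-values were two-sided, adjusted by Benjamini-Hochberg over 16609 genes, with a threshold of 0.05. Gene names came from the deposited table, and 49326 of 49510 identifiers were found in GENCODE vM21 on GRCm38, which gave loci and exon lengths. SEs come from the F statistic. The ratio of Prdm1 to Bcl6 had 0.5 counts added to each gene. Alternatives were RLE scaling, library totals, scaling to pan-T counts, DESeq2 1.42.0, limma-voom (limma 3.58.1), no filter, a stricter filter (10 CPM in 3 libraries), a replicate block, organs fitted in pairs and each library left out. Leaving out the 3 libraries that stood apart was added after seeing the data.

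The members, lists and rules were chosen with earlier results of these data known. All 9 factors are named in each comparison, as are the called genes of each list and the up to 4 of its genes with the highest mean CPM, and the 3 genes with the smallest root mean square difference from each factor. Every library differed from every other by more than sampling noise. Some genes that these rules name are not reported here.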

Additional observations from a re-analysis of the deposited data

How the results depend on the processing

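Counts of called factors moved from 0 to 2 (Rora and Ahr, heart and spleen) with scaling to pan-T counts, DESeq2 and limma-voom. For heart and MLN the count moved from 0 to 1 (Rora) with these 3 alternatives. It did so also with the stricter filter (edgeR adjusted p = 0.0337) and with organs fitted in pairs (edgeR adjusted p = 0.0477). The stricter filter called 3.61% of the genes it tested and the fits in pairs 3.57%, against 1.38% in the main fit. For MLN and spleen the count moved to 1 (Ahr) with DESeq2. Other alternatives left the counts at 0, and the cause of the differences was not tested. Over all genes, called genes ranged from 0 with the replicate block to 1885 with DESeq2 (main 131) for heart and spleen, from 0 with the replicate block to 2199 with DESeq2 (main 230) for heart and MLN, and from 0 to 785 with DESeq2 (main 0) for MLN and spleen. With 1 library left out, the count for heart and spleen was 0 without spleen library 1, spleen library 2 or heart library 3, 1 without spleen library 3, 10 without heart library 1, 2 without heart library 2 and 84 without MLN library 1. For heart and MLN it was 0 without MLN library 1 or heart library 3 and 24 to 59 without one of the other MLN or heart libraries. Whether replicate numbers pair the libraries is not stated. Deviations from the organ mean correlated between -0.21 and 0.22 for same-numbered libraries and between -0.30 and 0.43 for the others. Libraries were therefore not treated as pairs. With the replicate block no factor was called, and Rora had adjusted p = 0.282 and 0.170. Bcl6 did not pass the stricter filter.

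Signs turned only for differences that no test called. Pan-T scaling moved the medians of all genes to 0.83, 1.03 and -0.11, and with it heart and spleen gave 0.46 for Gata3, 0.42 for Bcl6 and 0.53 for Batf, heart and MLN 0.58 for Batf, and MLN and spleen -0.051 for Batf, so the values of the heart lie below the typical gene. With limma-voom, Bcl6 was 0.30 (heart and spleen) and 0.071 (MLN and spleen), and Tbx21 -2.50 (heart and MLN) and 1.10 (MLN and spleen). Bcl6 was 0.47 with the replicate block (heart and spleen) and -0.39 with library totals (heart and MLN). Without the 3 libraries that stood apart, heart and MLN gave -0.37 for Irf4 and -0.19 for Maf, MLN and spleen gave 0.36 for Maf, and the Prdm1 to Bcl6 difference was -0.72 for heart and spleen and -0.26 for heart and MLN.

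With each library left out, heart and spleen ranged from -3.96 to 0.96 for Tbx21, -1.76 to 1.31 for Gata3, -1.13 to 1.10 for Bcl6 and -0.83 to 1.20 for the Prdm1 to Bcl6 ratio. Heart and MLN ranged from -1.16 to 2.38 for Tbx21, -0.34 to 1.64 for Gata3, -0.42 to 1.20 for Bcl6 and -0.19 to 1.50 for Irf4. MLN and spleen ranged from -4.67 to 0.45 for Tbx21, -1.85 to 0.15 for Gata3, -1.76 to 1.01 for Bcl6, -0.27 to 0.37 for Batf, -0.27 to 0.35 for Maf and -1.89 to 0.16 for the ratio. Rora stayed between 2.09 and 3.32 (heart and spleen) and between 3.19 and 4.0 (heart and MLN), and Ahr between 2.53 and 3.10 (heart and spleen). The spread between the libraries of an organ exceeded counting error at this depth.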
